A study of Mus musculus with 8 samples.

Results

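The acrosome and egg-binding genes described here are the 9 genes Acrbp, Acrv1, Spaca1, Spaca3, Zpbp, Zpbp2, Izumo1, Spam1 and Crisp2, taken as every non-control probe that carries one of these gene names. They were read by 13 probes, 3 for Acrbp, 2 each for Spaca1 and Zpbp2 and 1 for each of the others, of 55681 non-control probes on the array. All 13 probes and all 9 genes passed the filter on dim probes, among 37807 probes and 26584 genes kept. The samples were whole testes of C57BL/6 mice in 4 groups of 2 arrays, namely Ip6k1-/- (KO) and Ip6k1+/+ (WT) littermates from crosses of Ip6k1+/- parents, at 26 days postpartum (dpp) and at 17 dpp. The arrays of a group are biological replicates per the labels, and neither the deleted part of Ip6k1 nor the number of animals behind an array is given in the sources used here.

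The acrosome is a vesicle that forms from the Golgi apparatus and spreads over the nucleus of the round spermatid, and its contents and membranes serve the sperm at the egg coat and the egg surface. Acrbp binds the precursor of the protease acrosin, Zpbp and Zpbp2 are zona pellucida binding proteins of the acrosomal matrix, and Acrv1 and Spaca3, which resembles a lysozyme, are further acrosomal proteins. Spaca1 is a membrane protein needed to shape the acrosome, Izumo1 is the sperm protein that binds its receptor on the egg before fusion, and Spam1 is a hyaluronidase held at the sperm surface. Crisp2 is a cysteine-rich secretory protein found in the acrosome and the sperm tail.

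Each level is the processed signal of a probe divided by the 75th percentile of its array, in log2, so a level of 0 is the brightness at that percentile. A probe counts as measured on an array where the scanner software called it well above background. Between 58.8% and 64.7% of probes were so called per array, and no spot was saturated. The targeted gene Ip6k1 had levels of 1.41 and 1.30 in KO against 2.79 and 2.77 in WT at 26 dpp, and of 1.36 and 1.49 in KO against 2.19 and 2.30 in WT at 17 dpp. Its probe was lower on every KO array than on every WT array of the same age, and whether it lies in the deleted part is not given. KO replicate 2 at 26 dpp stood apart: its correlation across genes, which are not independent replicates, was 0.863 with the other KO array of 26 dpp and 0.917 to 0.948 with the arrays of 17 dpp. The age on its label could not be checked by other data, so a direction drawn from it is that of the library labelled KO replicate 2 at 26 dpp. The comparisons of the 9 genes are given with it and without it.

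The probes are designed 60-base oligos, and those of genes with several probes are printed to show which stretches of a transcript the values come from. The 3 Acrbp probes lie at different places on mm9, chr6:125004152-125004211 (A_55_P2114074, designed on the second transcript variant of this gene in the files), chr6:125013191-125013250 (A_51_P356265) and chr6:125001291-125001350 (A_52_P510179), all on the plus strand. No run of more than 6 bases is shared by any pair of them.
Acrbp A_55_P2114074: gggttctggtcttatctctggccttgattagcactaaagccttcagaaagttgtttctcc
Acrbp A_51_P356265: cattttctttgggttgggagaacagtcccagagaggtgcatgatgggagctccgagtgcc
Acrbp A_52_P510179: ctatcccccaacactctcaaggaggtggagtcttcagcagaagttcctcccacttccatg

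Both Zpbp2 probes lie on the plus strand of mm9, at chr11:98419809-98419868 (A_51_P382805) and chr11:98419766-98419825 (A_55_P1996893). They overlap, and the 17 bases that they share are in capitals, so their values are not independent readings.
Zpbp2 A_51_P382805: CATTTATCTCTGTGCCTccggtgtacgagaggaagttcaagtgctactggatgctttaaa
Zpbp2 A_55_P1996893: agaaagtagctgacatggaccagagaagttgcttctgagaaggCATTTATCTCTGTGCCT

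Labelling began from an oligo-dT primer at the poly(A) tail, per the labels' protocols, and the probes of Spaca3 (mm9 chr11:80681253-80681312, plus strand), Izumo1 (chr7:52882553-52882612, plus strand) and Crisp2 (chr17:40923127-40923186, minus strand) hold the letters AATAAA, the form of the common polyadenylation signal. Capitals mark these letters. They occur in 3 of the 13 probes (23.1%), against 10.1% of all 55681 probes, and are a match of letters, not a mapped site.
Spaca3 A_55_P2028680: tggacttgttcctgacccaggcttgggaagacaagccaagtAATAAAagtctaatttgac
Izumo1 A_55_P2098423: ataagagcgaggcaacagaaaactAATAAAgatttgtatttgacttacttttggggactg
Crisp2 A_52_P43282: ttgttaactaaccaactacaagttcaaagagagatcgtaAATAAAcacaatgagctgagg

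The first comparison asked how the genes differ between 26 and 17 dpp, an interval in which the first wave of spermatogenesis passes from spermatocytes to spermatids. In KO testes 4 of the 9 genes were called higher at 26 dpp (Acrbp, Zpbp, Zpbp2 and Crisp2), where 7.62% of all 26584 genes were called higher, and in WT testes 8 of 9, against 18.9% of all genes. A call here is an adjusted p under 0.05 in a limma fit with Benjamini-Hochberg adjustment over all genes. Acrv1 and Spam1 passed the filter on dim probes only through WT at 26 dpp, and Spaca3 and Crisp2 only through the groups of 26 dpp. The direction of these genes was thus partly set by how they entered the test. Without KO replicate 2 at 26 dpp all 9 were called higher in both genotypes, against 21.5% of all genes in KO and 25.4% in WT. The median member difference in KO was 4.27 on the log2 scale with all arrays and 6.00 without KO replicate 2, against −0.31 and −0.49 over all genes. In WT it was 6.38, against −0.46 over all genes.

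Acrbp, the acrosin-binding protein, had levels of 6.52 and 5.001 in KO at 26 dpp against 0.87 and 2.11 in KO at 17 dpp. In WT the levels were 6.60 and 6.70 at 26 dpp against 1.14 and 1.59 at 17 dpp. Both arrays of 26 dpp lay above both of 17 dpp in each genotype, and at 26 dpp KO replicate 2 was the lowest array. The difference in KO was 4.27 (SE 0.62, 19.3-fold, limma adjusted p = 0.0188), and in WT it was 5.29 (SE 0.62, 39.1-fold, limma adjusted p = 0.00663). The difference in KO without KO replicate 2 at 26 dpp was 5.03 (32.6-fold, limma adjusted p = 0.00223).

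Zpbp2, a zona pellucida binding protein, showed the same layout of arrays. Its levels were 7.02 and 5.42 in KO at 26 dpp against 0.18 and 1.86 in KO at 17 dpp, and 7.14 and 7.21 in WT at 26 dpp against 0.38 and 1.22 in WT at 17 dpp. The differences were 5.20 in KO (SE 0.74, 36.7-fold, limma adjusted p = 0.0187) and 6.38 in WT (SE 0.74, 83.1-fold, limma adjusted p = 0.00661), and 6.00 in KO without KO replicate 2 at 26 dpp (63.9-fold, limma adjusted p = 0.00296). Its relative Zpbp, of the same matrix, was read by a probe that covers 2884 bases of mm9 with 60 letters (chr11:11315309-11318192, minus strand) and so crosses at least 1 intron. Zpbp had levels of 2.73 and 0.72 in KO at 26 dpp against −2.47 and −1.85 in KO at 17 dpp, and 2.62 and 3.05 in WT at 26 dpp against −2.07 and −2.10 in WT at 17 dpp. Zpbp differed by 3.89 in KO (SE 0.65, 14.8-fold, limma adjusted p = 0.0230) and by 4.92 in WT (SE 0.65, 30.3-fold, limma adjusted p = 0.00785), and by 4.89 in KO without KO replicate 2 (29.6-fold, limma adjusted p = 0.00067).

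Crisp2, the cysteine-rich protein of acrosome and tail, had levels of 3.21 and 1.67 in KO at 26 dpp against −7.28 and −3.26 in KO at 17 dpp. In WT the levels were 3.14 and 3.65 at 26 dpp against −5.44 and −4.07 at 17 dpp. At 17 dpp the probe was measured on 1 of 2 arrays in each genotype, replicate 2 in both, so the sizes below rest partly on a dim signal. Under other processing of all arrays the differences ran from 5.08 to 7.86 in KO and from 6.12 to 8.36 in WT. The differences were 7.71 in KO (SE 1.32, limma adjusted p = 0.0239) and 8.15 in WT (SE 1.32, limma adjusted p = 0.0108), and 8.48 in KO without KO replicate 2 at 26 dpp (limma adjusted p = 0.00966).

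Spaca3, the lysozyme-like protein, was measured on all 4 arrays of 26 dpp and on no array of 17 dpp. Its levels at 26 dpp were 4.91 and −3.77 in KO against 4.804 and 5.20 in WT. At 17 dpp the probe read −6.48 and −7.70 in KO against −7.09 and −7.89 in WT, all not well above background. KO at 26 dpp was at least 67.8-fold brighter than at 17 dpp, which was not called (limma adjusted p = 0.0910), and WT was at least 1665-fold brighter (limma adjusted p = 0.0168). KO was at least 1371-fold brighter without KO replicate 2 at 26 dpp (limma adjusted p = 0.00029). "At least" sets the mean of the brighter group against the mean, per array of the dim group, of the lowest signal among measured probes or the probe's own signal, whichever is higher.

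Acrv1, an acrosomal vesicle protein, was likewise not measured at 17 dpp, where it read −6.91 and −7.14 in KO against −6.17 and −7.71 in WT. At 26 dpp its level was 3.46 in KO replicate 1, against 3.09 and 3.78 in WT, while KO replicate 2 was not well above background at −5.96. KO was at least 19.2-fold brighter at 26 dpp with 1 of 2 arrays measured, which was not called (limma adjusted p = 0.192), and WT was at least 562-fold brighter (limma adjusted p = 0.0307). KO was at least 502-fold brighter once KO replicate 2 at 26 dpp was left out (limma adjusted p = 0.00056).

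Spam1, the surface hyaluronidase, was also measured on 3 of the 4 arrays of 26 dpp. At 26 dpp its levels were 0.95 in KO replicate 1 and −7.39, not well above background, in KO replicate 2, against 0.75 and 1.05 in WT. At 17 dpp it read −7.55 and −7.33 in KO against −7.60 and −7.88 in WT, none of them measured. It was at least 4.90-fold brighter at 26 dpp in KO, which was not called (limma adjusted p = 0.2505), and at least 97.1-fold brighter in WT (limma adjusted p = 0.0337). With KO replicate 2 at 26 dpp left out, KO was at least 88.1-fold brighter (limma adjusted p = 9.2e-05).

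Spaca1, the membrane protein that shapes the acrosome, was measured on all 8 arrays. Its levels were 4.36 and −0.53 in KO at 26 dpp against −0.62 and −0.41 in KO at 17 dpp, and 4.01 and 4.62 in WT at 26 dpp against −0.42 and −0.69 in WT at 17 dpp. The value of KO replicate 2 at 26 dpp lay inside the range of the 4 arrays of 17 dpp. The KO difference of 2.43 (SE 1.44) was not called (limma adjusted p = 0.262), and the difference in WT was 4.87 (SE 1.44, 29.2-fold, limma adjusted p = 0.0382). The KO difference without KO replicate 2 was 4.88 (29.5-fold, limma adjusted p = 0.00057).

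Izumo1, the sperm partner of the egg receptor, had levels of 0.72 and −5.35 in KO at 26 dpp against −3.45 and −4.29 in KO at 17 dpp. In WT it had 0.50 and 1.21 at 26 dpp against −4.14 and −4.22 at 17 dpp. The −5.35 of KO replicate 2 was not well above background and lay below all 4 arrays of 17 dpp. Izumo1 was not called in KO, with a difference of 1.55 (SE 1.79, limma adjusted p = 0.540), and was the 1 gene of the 9 not called in WT, with 5.03 (SE 1.79, limma adjusted p = 0.0610). Without KO replicate 2 the differences were 4.59 in KO (SE 0.46, limma adjusted p = 0.00192) and 5.03 in WT (SE 0.37, limma adjusted p = 0.00049).

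**Figure D1:**
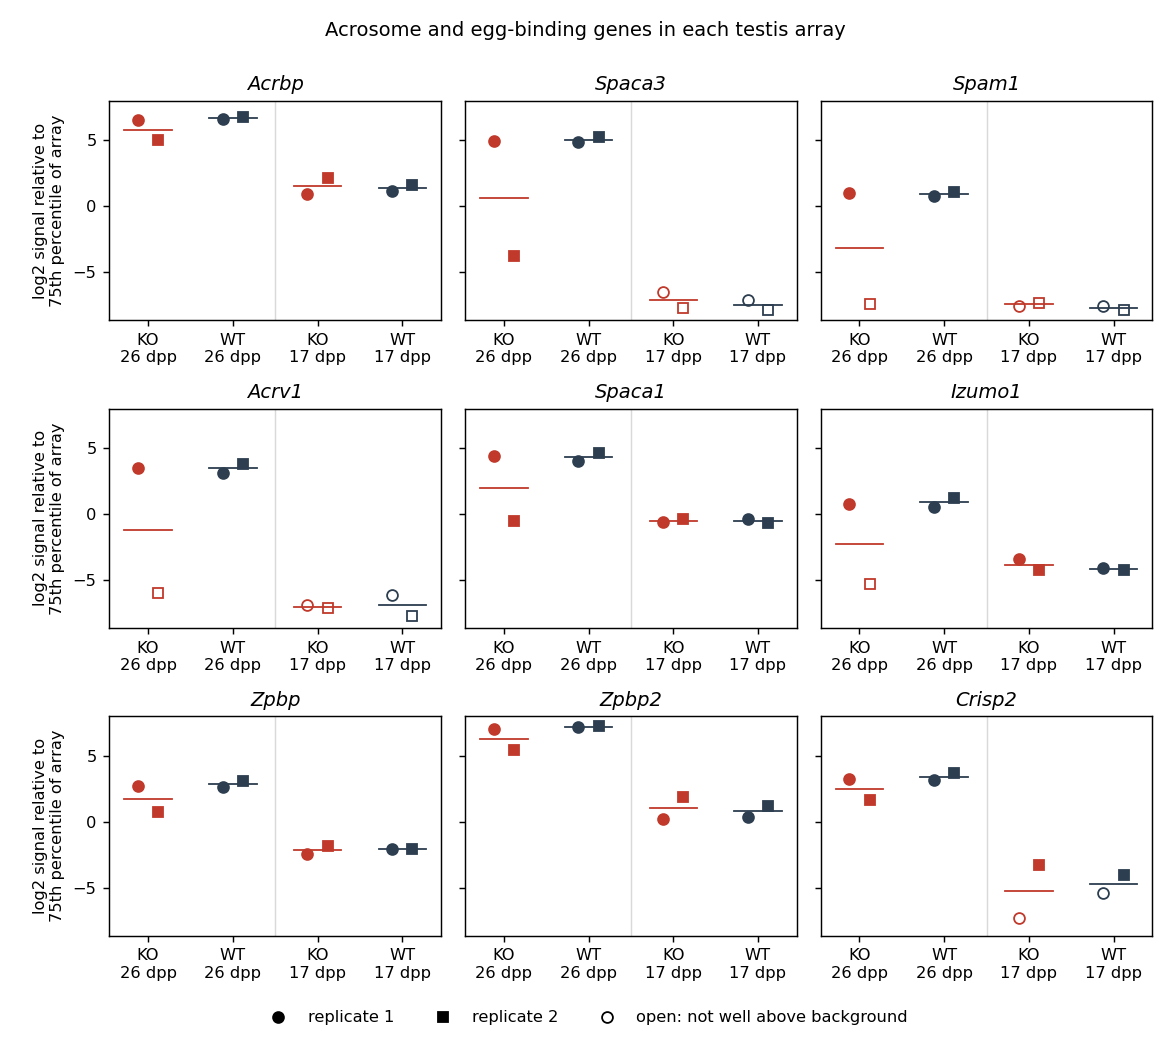
Level of each gene (log2 signal relative to the 75th percentile of the array) on each of the 8 arrays, with groups from KO and WT at 26 dpp to KO and WT at 17 dpp, circles for replicate 1, squares for replicate 2, open symbols where the probe was not well above background, and lines at group means. KO replicate 2 at 26 dpp lies low in every panel, at −0.53 for Spaca1 against 4.36 in KO replicate 1, but only modestly low for Acrbp, at 5.001 against 6.52.

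In KO both arrays of 26 dpp lay above both of 17 dpp for 6 of 9 genes, where 22.3% of all genes had that layout. The 3 exceptions were Spaca1, Izumo1 and Spam1, and for Acrv1 KO replicate 2 lay above both arrays of 17 dpp while not well above background. In WT this held for 9 of 9 genes, against 32.1% of all genes. For all 9 genes the mean level was highest in WT at 26 dpp, then in KO at 26 dpp, then in the groups of 17 dpp. KO and WT at 26 dpp did not overlap for Acrbp and Zpbp2 and overlapped for the other 7, and at 17 dpp KO and WT overlapped for all but Spam1, where KO lay above WT, both below background (16% of all genes had that layout). The WT calls rested on few arrays: leaving out any 1 of the 4 WT arrays left 0 of 9 genes called in WT, where 0 to 184 of all genes were called, leaving out either KO array of 17 dpp left 5, with 26.3% of all genes called, and the WT differences of single genes moved by no more than 0.77. In KO, 0 of 9 were called without any 1 of the 4 WT arrays or without KO replicate 1 at 17 dpp, where 0 to 81 of all genes were called. The KO count was 3 without KO replicate 2 at 17 dpp, with 4.46% of all genes called, and 5 without KO replicate 1 at 26 dpp, with 19% of all genes called.

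The probes of one gene gave differences of one sign and similar size. The 3 Acrbp probes were 5.29, 5.32 and 5.73 higher at 26 dpp in WT on the log2 scale. The 2 Spaca1 probes gave differences of 4.87 and 4.795, and the 2 overlapping Zpbp2 probes gave 6.38 and 6.47. All 7 of these probes were called in WT with every kept probe fitted as its own feature (limma adjusted p from 0.00651 to 0.0395).

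**Figure D2:**
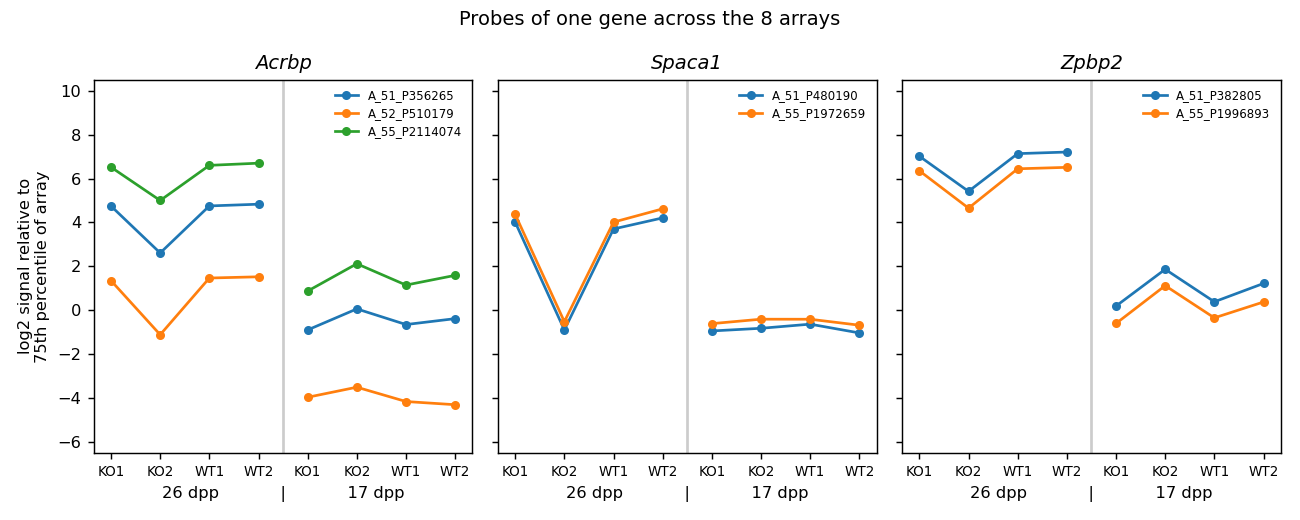
Level of every probe (log2 signal relative to the 75th percentile of the array) of Acrbp, Spaca1 and Zpbp2 on the arrays of 26 dpp, left of the line in each panel, and of 17 dpp, right of it. Lines join arrays only to show the pattern of 1 probe, and every probe is lower on KO replicate 2 (KO2) than on the other 3 arrays of 26 dpp.

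The second comparison asked how loss of Ip6k1 relates to these genes at each age. At 17 dpp 0 of the 9 genes were called between KO and WT, where 0.0903% of all genes were called, and 0 members had an unadjusted p under 0.05 (limma). The 5 genes measured on both arrays of both groups differed by −0.08 for Zpbp to 0.31 for Izumo1, with a median of 0.13 against 0.017 over all genes. Crisp2 was measured on 1 array of each group, and Acrv1, Spaca3 and Spam1 on none, so no size is given for them. Zpbp2 had 1.02 in KO against 0.80 in WT on average, a difference of 0.23 with a 95% interval from −1.58 to 2.03. For Zpbp the difference had an interval from −1.66 to 1.51, and Acrbp by 0.13, with an interval from −1.37 to 1.63. At this age the KO arrays enclosed or overlapped the WT arrays for these 5 genes.

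At 26 dpp 0 of the 9 genes were called between KO and WT, where 0.00752% of all genes were called, and 0 members had an unadjusted p under 0.05 (limma). All 9 differences were negative, from −4.69 for Acrv1 to −0.89 for Acrbp, with a median of −2.40 against 0.078 over all genes and limma adjusted p from 0.535 to 0.691. Spaca3 differed by −4.43 (95% interval −10.63 to 1.77), Spam1 by −4.12 (−10.00 to 1.76), Izumo1 by −3.17 (−7.54 to 1.20) and Spaca1 by −2.40 (−5.90 to 1.11). Zpbp differed by −1.11 (−2.70 to 0.47), Zpbp2 by −0.96 (−2.76 to 0.85) and Crisp2 by −0.95 (−4.19 to 2.28). On KO replicate 2 Acrv1, Spam1 and Izumo1 were not well above background, so the sizes and intervals for these 3 rest on a dim signal. With normexp background correction their differences were −3.08 for Acrv1, −1.97 for Spam1 and −1.84 for Izumo1, and the median over the 9 was −1.84 (limma adjusted p = 0.550 for each of the 3). Over the 4 genes whose probes were measured on all arrays the median was −1.03. Both KO arrays lay below both WT arrays for 2 of 9 genes, Acrbp and Zpbp2, where 17% of all genes had that layout.

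These values turned on the KO array that was used. Without KO replicate 2, the differences between KO replicate 1 and WT ran from −0.18 for Crisp2 to 0.05 for Spam1, with a median of −0.11, 3 of 9 positive, and 0 called (limma adjusted p = 1.00 for each), where 0.0376% of all genes were called. The intervals were then −0.75 to 0.85 for Spaca1, −0.57 to 0.67 for Spam1 and −0.95 to 0.74 for Zpbp. Without KO replicate 1 in its place, 6 of 9 were called lower in KO (Acrv1, Spaca1, Spaca3, Zpbp, Izumo1 and Spam1), with a median of −4.85, where 45.2% of all genes were called in either direction. With 1 KO array left, its spread was taken from the other groups.

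**Figure D3:**
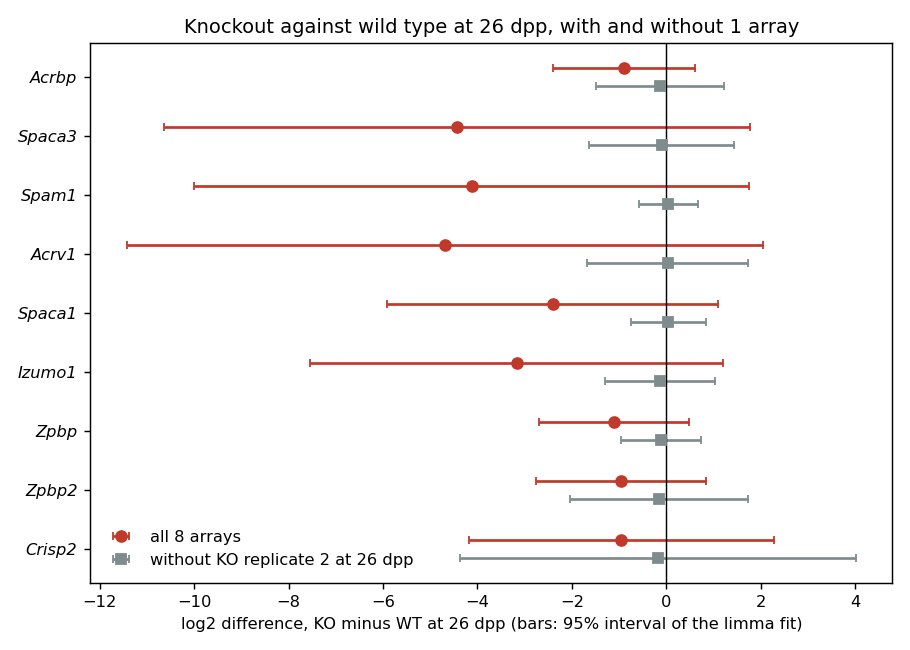
Difference between KO and WT at 26 dpp (log2, KO minus WT) for each gene with all 8 arrays (circles) and without KO replicate 2 (squares), bars being 95% intervals of the limma fit. With all arrays the estimates run from −4.69 to −0.89, without that array from −0.18 to 0.05, and every interval holds 0.

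Averaged over both ages, the KO difference was negative for all 9 genes, from −2.39 to −0.36, and 0 were called, where 0% of all genes were called (limma, 573 genes at an unadjusted p under 0.05 and 0 members). The KO effect at 26 dpp minus that at 17 dpp ran from −4.83 to −0.44, and again 0 members and 0% of all genes were called (limma, 504 genes at an unadjusted p under 0.05 and 0 members). Without KO replicate 2 at 26 dpp the average was positive for 5 of 9 genes, from −0.35 to 0.18, and the difference of effects ran from −0.49 to 0.34. All ends of these ranges but −0.36 (Zpbp2) are of Acrv1, Spaca3, Spam1 or Crisp2, and rest partly on signals not well above background at 17 dpp. Over the 5 genes measured in both groups of 17 dpp, and with all arrays, the average ran from −1.43 to −0.36. The difference of effects ran from −3.48 to −1.02 over the same 5.

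KO replicate 2 at 26 dpp was not evenly low over the 9 genes. Its level was placed on a scale where 0% is the mean of the 4 arrays of 17 dpp and 100% the WT mean of 26 dpp, on the log2 scale and with levels below the lowest measured signal of an array set to that signal. Acrv1 and Spam1, measured neither on that array nor at 17 dpp, have no position. Crisp2 stood at 78.3%, Zpbp2 at 72.0%, Acrbp at 68.4% and Zpbp at 57.4%. Spaca1 stood at 0.12% and Spaca3 at 17.3%, with the floor in place of its levels at 17 dpp. Izumo1, measured at 17 dpp and not on that array, stood at −26.5% or lower. On KO replicate 1 all 9 stood at 97.3% to 101%. Of 3228 other genes called higher in WT at 26 dpp and more than 2 log2 units higher, 2620 had a position by the same rule. Of these 50.8% stood above 50% and 23.1% under 20%, with a median of 50.6%.

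Marker lists of testis cell types also differed on that array. The median level of 8 markers of pachytene spermatocytes was 4.77 and 3.63 in KO and 4.73 and 5.05 in WT at 26 dpp, against −3.19 and 0.09 in KO and −2.43 and −1.27 in WT at 17 dpp. The median of 8 markers of elongating spermatids was 6.18 and −4.72 in KO and 5.57 and 7.07 in WT at 26 dpp, against −4.49 and −4.47 in KO and −5.27 and −5.05 in WT at 17 dpp. For 7 round spermatid markers, which include Acrv1, it was 3.17 and −2.61 in KO and 2.99 and 3.78 in WT at 26 dpp, against −5.12 and −4.28 in KO and −5.48 and −4.63 in WT at 17 dpp. By these medians KO replicate 2 at 26 dpp was closer to the arrays of its age than to those of 17 dpp for the spermatocyte list. For the elongating list it was inside the range of 17 dpp. Not every spermatocyte marker followed the median. Spag6 read −2.70 on that array, against 2.63 to 2.83 on the other arrays of 26 dpp and −4.64 to −3.73 at 17 dpp. Sycp3 read 6.34 on it, above every other array. On that array 8 of 8 spermatocyte, 5 of 8 elongating and 5 of 7 round spermatid markers were well above background. On the arrays of 17 dpp these counts were 7 or 8, 4 to 7 and 3 to 5, so they do not set that array apart from 17 dpp. The median of 6 spermatogonia markers was 0.17 and 1.35 in KO and 0.16 and −0.28 in WT at 26 dpp, against 1.91 to 2.20 at 17 dpp. The median of 5 Leydig cell markers was 0.49 and −2.99 in KO and 1.13 and 0.25 in WT at 26 dpp, against −1.34 and −2.31 in KO and 0.16 and −1.94 in WT at 17 dpp, so KO replicate 2 at 26 dpp had the lowest value of the 8 arrays. The median of 4 macrophage markers was also lowest on that array, at −1.82 against −1.02 to −0.25 on the other arrays. So was the median of 8 Sertoli cell markers, at 2.25 against 2.85 to 4.16, but most single markers went the other way. All 8 but Inha and Rhox5 were higher on KO replicate 2 than on the other arrays of 26 dpp. The mean of the 8 was 2.58 there, against 1.87 to 1.98 on the other arrays of 26 dpp and 3.28 to 3.58 at 17 dpp. The part of cell composition in the results was not tested, and in whole testis fewer cells of a type and less RNA per cell cannot be told apart.

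**Figure D4:**
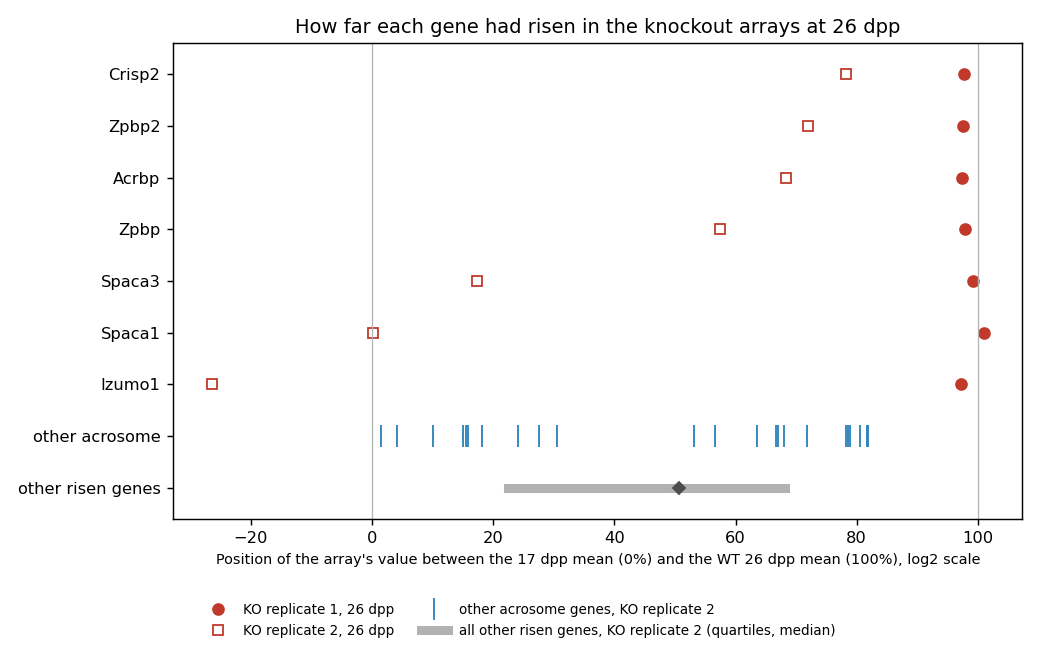
Position of KO replicate 1 (filled circles) and KO replicate 2 (open squares) at 26 dpp between the mean of 17 dpp (0%) and the WT mean of 26 dpp (100%), on the log2 scale, for the 7 genes with a position, with 23 other acrosome genes as ticks and the quartiles and median of 2620 other risen genes as a bar with a diamond, both for KO replicate 2. Replicate 1 sits near 100% for these 7 genes, and replicate 2 from −26.5%, an upper limit for Izumo1, to 78.3%.

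The genes placed high on that array also read higher on KO replicate 2 than on KO replicate 1 at 17 dpp. KO replicate 2 minus KO replicate 1 at 17 dpp was 2.21 for Crisp2, 1.68 for Zpbp2, 1.24 for Acrbp and 0.62 for Zpbp, with the floor above applied, against 0.20 for Spaca1 and −0.84 for Izumo1. The median over all genes was −0.04. Across the 6 members measured on at least 1 array of 17 dpp, with Izumo1 at its limit, this difference and the position had a Pearson r of 0.931 and a Spearman rho of 1. Across 20 other acrosome genes r was 0.806, and across 2338 other risen genes it was 0.463. These are descriptions across genes, which are not independent replicates and share the same arrays. In WT at 17 dpp replicate 2 also read higher than replicate 1 for Crisp2, by 1.38, Zpbp2, by 0.84, and Acrbp, by 0.44. That difference in WT was −0.03 for Zpbp, −0.09 for Izumo1 and −0.27 for Spaca1. The pachytene list was higher in replicate 2 than in replicate 1 at 17 dpp in both genotypes, by the medians given above. Its part in the spread was not tested.

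**Figure D5:**
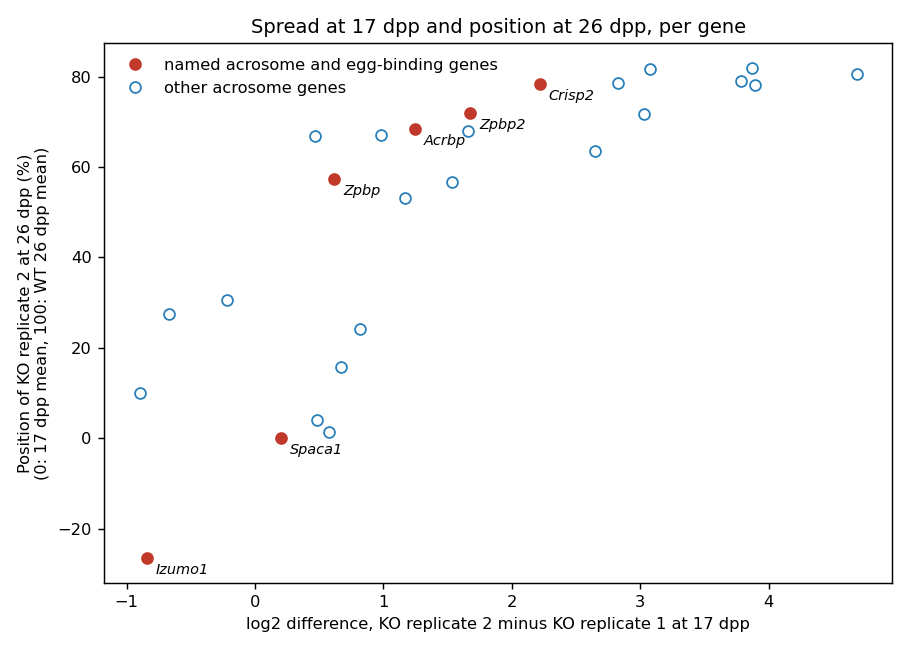
Each point is a gene measured on at least 1 array of 17 dpp, with KO replicate 2 minus KO replicate 1 at 17 dpp (log2) on the horizontal axis and the position of KO replicate 2 at 26 dpp (%) on the vertical axis, for 6 named genes (filled) and 20 other acrosome genes (open). Genes further to the right tend to lie higher, from Izumo1 at −0.84 and −26.5% to Crisp2 at 2.21 and 78.3%.

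Of 43 further genes listed for the acrosome and for fertilisation, 41 could be tested. In KO 15 were called higher and 0 lower at 26 dpp than at 17 dpp, with a median of 4.47, and in WT 35 were called higher and 1 lower, with a median of 5.98. Of all genes 7.62% were called higher and 8.18% lower in KO, and 18.9% higher and 26.1% lower in WT. Without KO replicate 2 at 26 dpp the counts were 37 higher and 1 lower in KO and 38 higher and 2 lower in WT, where 38.1% and 43.7% of all genes were called lower. The genes with the smallest p in WT were Tmf1, a Golgi protein, with 3.19 (limma adjusted p = 0.0068), Acr, the protease acrosin itself, with 5.77 (limma adjusted p = 0.00785), Actl9, an actin-like protein, with 7.08 (limma adjusted p = 0.0089), and Pcsk4, a proprotein convertase, with 2.93 (limma adjusted p = 0.0099). In KO they were Tmf1 with 2.59 (limma adjusted p = 0.0188), Acr with 4.67 (limma adjusted p = 0.0225), Agfg1, a protein needed for the fusion of acrosomal vesicles, with 1.497 (limma adjusted p = 0.0261), and Dpy19l2, which anchors the acrosome to the nucleus, with 5.68 (limma adjusted p = 0.0261).

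By role, in KO 4 of 9 genes for acrosomal contents, 5 of 19 for membranes and adhesion and 6 of 13 for building the acrosome were called higher at 26 dpp. In WT the counts were 8 of 9, 17 of 19 and 10 of 13. Vps54, of a Golgi tethering complex, was the gene called lower in WT, with −1.42 (limma adjusted p = 0.0401). Between KO and WT 0 of 41 were called at 26 dpp and 0 of 41 at 17 dpp, where 0.00752% and 0.0903% of all genes were called. Their medians were −1.38 at 26 dpp, with 4 of 41 positive, and 0.020 at 17 dpp, and without KO replicate 2 the median at 26 dpp was −0.06. Among genes measured in both groups the largest differences at 26 dpp were those of Lyzl4, with −4.47, and Tmem190, with −4.22 (limma adjusted p = 0.535 for both), and at 17 dpp those of Cd46, with 1.08, and 1700034O15Rik, with −0.94 (limma adjusted p = 1.00 for both).

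Of the 31 other acrosome genes called higher in WT at 26 dpp and more than 2 log2 units higher, 23 had a position on KO replicate 2 at 26 dpp. Of these 13 (56.5%, against 50.8% of all other risen genes) stood above 50% of the rise, among them Spink2, an inhibitor of acrosin, at 81.9% and Acr at 67.9%, and 7 (30.4%, against 23.1%) stood under 20%, among them Spaca4, a sperm membrane protein, at 1.46%. Their median was 56.7%, and Izumo4, of the Izumo family, stood at 53.1%. The other acrosome genes were picked by the same rules, so the limits given above hold for these shares too.

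Over the 8 arrays every pair of the 9 genes had a Pearson r of 0.696 to 0.999, with a median of 0.935. Without KO replicate 2 at 26 dpp the range was 0.930 to 0.999 over 7 arrays. Against the mean profile of the 9, r ran from 0.916 for Izumo1 to 0.994 for Spaca3. Outside the 9, the highest r to that profile over the 8 arrays were those of Spata17 (0.9995), 1700049L16Rik (0.9995), Zdhhc19 (0.9993), 1700007E05Rik (0.9992) and Pmfbp1 (0.9992). In all, 490 genes had an r above 0.99, and these values describe the layout of 8 arrays.

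Promoter sequence is shown for 2 genes that stood high on KO replicate 2 at 26 dpp, Acrbp and Crisp2, and 2 that stood low, Spaca1 and Izumo1. The 250 bases before the gene start are from RefSeq on GRCm38.p6, at chr6:125049677-125049926 (Acrbp, plus strand), chr17:40794147-40794396 (Crisp2, minus strand), chr4:34050066-34050315 (Spaca1, minus strand) and chr7:45621561-45621810 (Izumo1, plus strand), and all 9 genes matched by symbol. Capitals mark TGACG, the core of the cAMP response element, GTTGCC, part of the X-box that RFX factors bind, and TATAAA, the TATA box, each searched on both strands.
Acrbp: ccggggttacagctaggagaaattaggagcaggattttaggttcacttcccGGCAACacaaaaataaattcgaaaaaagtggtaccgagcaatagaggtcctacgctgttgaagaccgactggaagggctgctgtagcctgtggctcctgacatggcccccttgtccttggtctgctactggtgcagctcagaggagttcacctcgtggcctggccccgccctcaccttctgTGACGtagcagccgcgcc
Crisp2: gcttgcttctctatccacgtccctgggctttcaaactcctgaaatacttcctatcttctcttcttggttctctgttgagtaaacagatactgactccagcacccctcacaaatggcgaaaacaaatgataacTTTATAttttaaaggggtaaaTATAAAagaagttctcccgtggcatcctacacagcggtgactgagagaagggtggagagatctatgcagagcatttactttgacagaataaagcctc
Spaca1: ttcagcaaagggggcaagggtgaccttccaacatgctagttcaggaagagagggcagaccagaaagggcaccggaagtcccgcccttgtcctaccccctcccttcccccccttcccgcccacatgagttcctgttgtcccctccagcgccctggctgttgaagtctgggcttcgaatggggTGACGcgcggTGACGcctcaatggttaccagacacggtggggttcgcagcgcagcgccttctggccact
Izumo1: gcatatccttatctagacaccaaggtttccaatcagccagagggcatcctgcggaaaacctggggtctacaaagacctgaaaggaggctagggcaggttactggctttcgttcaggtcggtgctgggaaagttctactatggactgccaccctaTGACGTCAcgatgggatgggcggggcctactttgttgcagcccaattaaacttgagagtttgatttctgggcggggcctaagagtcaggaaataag

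TGACG occurred in the windows of 5 of the 9 genes (Acrbp, Spaca1, Izumo1, Spaca3 and Zpbp2). The 9 genes have 11 windows, 2 each for Spaca1 and Spaca3, and 7 of the 11 held TGACG. The share by window was 20.8% over all 32851 promoter windows of 300 bases, which reach 50 bases past the gene start. In Izumo1 the match at −96 from the gene start overlaps 1 on the other strand at −93, which together read the whole palindrome in capitals. Spaca1 held TGACG at −69 and −59 and Acrbp at −18. TATAAA occurred in Crisp2 alone of the 9, at −97 and on the other strand at −118, against 13.6% of all windows, and GTTGCC in Acrbp alone, at −199 on the other strand, against 12.5%. AACNG, the core that MYB factors bind, occurred in 7 of 9 genes and 8 of 11 windows, against 80.3% of all windows. The matches are letters in these windows and not sites of binding, and genes with TGACG stood both above 50% and under 20% of the rise on KO replicate 2.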

How the data were processed

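RNA of whole testes was hybridised to 8 Agilent 1-colour arrays (Cy3), 2 per group. Agilent Feature Extraction 11.5.1.1, per the file headers, gave the processed, mean and background signals as intensity values on a linear scale, deposited by the authors without scaling between arrays. The value table deposited by the authors holds log2 values of unstated scale and centring; each column followed log2 of the processed signal (r from 0.999906 to 0.999946 across probes), its median lay between −3.84 and −3.59, and how spots were combined is unknown. With a single colour a value has no direction.

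Spots of controls and outlier spots, of which an array had 103 to 200, were dropped. Processed signals were divided by the 75th percentile of the array, put on the log2 scale and averaged over the spots of a probe. Probes entered the fit if some group had them above background on both its arrays. Where a gene had several such probes, the one with the highest mean stood for it. Of the probes, 27509 of 55681 were named through a RefSeq accession on GRCm38.p6, the others by the file. Coordinates of probes are those of the files, on mm9. limma 3.58.1 in R 4.3.3 (data.table, version 1.17.8, for reading) fitted 1 mean per group over all 8 arrays, which left 4 residual degrees of freedom, with two-sided tests and Benjamini-Hochberg adjustment over 26584 genes at 0.05. The fit was tested on simulated data. All arrays lay on 1 slide with 1 scan time, so neither is a batch. The number of arrays limits the precision. Alternatives were normexp background correction, other scalings, filters, probe rules and variance models, a replicate block and leaving out each array.

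All 9 members were named with every array's value; of the other acrosome genes, the 4 with the smallest p among those that passed, or else the 2 with the largest difference among those measured in both groups; and the 5 genes most like the members' mean profile. The members, lists and rules were chosen with earlier results of these data known, so they are no independent evidence of a direction. Positions on KO replicate 2 were kept to genes measured on that array or at 17 dpp, a rule set after their values were seen. Genes on mouse chromosome 18 were not named by these rules.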

Additional observations from a re-analysis of the deposited data

How the results depend on the processing

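Depth and array number limit these results, since 3 of the 9 genes were not measured at 17 dpp and no group had more than 2 arrays. For 26 against 17 dpp, and with all arrays kept, the calls in KO covered 0 of 9 genes with array weights (0.226% of all genes called). With only the arrays compared they covered 0 (0% of all genes called). They covered 3 or 4 under the other settings, where 960 to 5537 genes or probes were called. The cause was not tested. In WT the calls covered 4 with only probes above background on all arrays (4 could be tested, and 10278 of 21147 genes were called). They covered 7 to 9 under the others, where 8795 to 19798 genes or probes were called. The count was 9 with array weights (19798 of 26584 genes called), only the arrays compared (18652) and normexp correction (12009, or 13096 with quantile normalization). Izumo1 gained its WT call under normexp correction (3.34, limma adjusted p = 0.0381, and with quantile normalization 3.36, limma adjusted p = 0.0435), array weights and only the arrays compared. Signs turned at 17 dpp for Crisp2 under normexp correction (0.10, and 0.056 with quantile normalization) and for Spaca1 with the mean of its probes (−0.0060). The scaling moved the median of all genes for 26 against 17 dpp in WT between −0.51 and −0.25 and kept all 9 members positive. Fits of only the arrays compared were not run for the average and for the difference of effects, which use all groups. Whether replicate numbers pair the samples cannot be told from 2 arrays per group. Across genes, deviations of same-numbered arrays correlated at −0.40 (KO and WT at 26 dpp) to 0.11 (KO and WT at 17 dpp). With the replicate block 3 of 9 genes were called in KO and 7 of 9 in WT, with 960 genes called in all in KO and 8795 in WT, against 4200 in KO and 11978 in WT without it. Leaving out each array in turn gave these ranges (log2). Between KO and WT at 26 dpp the median member difference lay at −4.85 to −0.11, Acrv1 at −9.40 to 0.027, Spaca1 at −4.85 to 0.048 and Spam1 at −8.29 to 0.048. At 17 dpp Acrbp lay at −0.49 to 0.75, Spaca1 at −0.10 to 0.17, Zpbp at −0.39 to 0.23, Zpbp2 at −0.61 to 1.06, Izumo1 at −0.11 to 0.73 and Crisp2 at −2.53 to 1.497. For the average of both ages Spaca1 lay at −2.40 to 0.042, Zpbp2 at −0.78 to 0.054, Izumo1 at −2.95 to 0.089 and Crisp2 at −1.74 to 0.27. For the difference of effects the median lay at −4.88 to −0.25, Spaca1 at −4.88 to 0.011 and Crisp2 at −2.45 to 1.57. For 26 against 17 dpp in KO the median ran from 2.88 to 6.00, Spaca1 from −0.013 to 4.88 and Izumo1 from −1.48 to 4.59. In WT the median ran from 5.96 to 6.80. Of 867 values of members under the alternatives, 747 kept their direction and their side of the threshold.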

Other observations

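Crisp1 and Crisp3 are relatives of Crisp2, and Crisp1 is a marker of the epididymis. At 17 dpp Crisp3 was not well above background in KO, at −7.60 and −7.70, against 3.902 and 5.42 in WT, so KO was at least 1154-fold lower (limma adjusted p = 0.0368). Crisp1 was at least 156-fold lower in KO at 17 dpp (limma adjusted p = 0.0317). Of 8 tested epididymis markers, Crisp1 among them, 0 were well above background on each KO array of 17 dpp, with medians of −7.65 and −7.56, against 8 on each WT array of 17 dpp, with medians of −0.56 and 1.34. On the arrays of 26 dpp 0 or 1 of 8 were. The part of epididymis RNA in the levels of the 9 genes was not tested: Spam1 was not well above background on those WT arrays, and Crisp2 was so on 1 of them.

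On the egg side, 3 of 5 listed partners could be tested. Cd9, a membrane protein that the egg needs for fusion and that many other cells carry, was lower at 26 dpp in WT, with levels of 0.55 and 0.19 against 2.88 and 3.12 at 17 dpp (limma adjusted p = 0.0203). Zp3, the zona pellucida glycoprotein, was also lower at 26 dpp in WT, at −3.20 and −3.74 against −1.08 and −1.39 at 17 dpp (limma adjusted p = 0.0431). Izumo1r, the egg receptor of Izumo1, had −3.67 and −3.66 in WT at 26 dpp against −3.36 and −3.25 at 17 dpp and was not called (limma adjusted p = 0.210). On KO replicate 2 at 26 dpp Cd9 stood at 2.12 and Zp3 at −1.43, against 0.34 and −3.64 on KO replicate 1.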
